A study of Mus musculus with 9 samples.

Results

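A set of 10 genes of the pan-reactive astrocyte response, named Gfap, Vim, Nes, Cd44, Serpina3n, Cp, Steap4, S1pr3, Aspg and Osmr, were followed in RNA sequencing of mouse cerebral cortex after experimental stroke. They were chosen by symbol and make up 10 of the 52550 genes in the deposited tables. All 10 passed the filter on low values, which kept 17080 genes, and 23 of their 54 annotated transcripts passed the same filter. All mice were male C57BL/6N animals, 9 to 12 weeks old. The 3 knockdown libraries (replicates 2, 3 and 4) came from mice given a locked nucleic acid antisense oligo against the enhancer RNA eRNA_06347 through the lateral ventricles, and the 3 control oligo libraries (replicates 1, 2 and 3) from mice given a negative control oligo by the same route. Both of these groups then had the middle cerebral artery closed by a filament for 1 h and reopened for 6 h, and infarcted cortex of the same side was taken. The 3 sham libraries (replicates 1, 2 and 3) came from mice with the neck incision but no filament and were taken over from an earlier data set of the laboratory; the labels name no oligo for them. The level of eRNA_06347 itself was not analysed here.

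Astrocytes respond to injury by changing shape, enlarging their intermediate filament network and switching on a set of genes known as reactive. Pan-reactive genes are those induced in astrocytes both by ischemia and by systemic inflammation. Gfap, Vim and Nes encode filament proteins, Cd44, S1pr3 and Osmr are receptors at the cell surface, Serpina3n is a secreted protease inhibitor, Cp and Steap4 handle iron and copper, and Aspg is an enzyme of asparagine breakdown. Several of these genes are also used by endothelial cells, fibroblasts, macrophages or other cells of injured brain. In tissue RNA, more cells of a type and more RNA per cell cannot be told apart.

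The libraries were not alike in 2 respects that touch every result. The 6 stroke libraries held 4.92 to 5.52 gigabases of aligned sequence with a most frequent 282 aligned bases per read or fragment, whereas sham libraries held 2.98 to 3.18 gigabases with a most frequent 51. Nuclear protein-coding genes took 54.7 to 63.9% of all TPM (the share of all transcripts in a library, corrected for transcript length) in the stroke libraries, against 30.6 to 34.2% in sham, so that the typical gene had a log2 change of 0.61 in knockdown against sham and of 0.56 in control oligo against sham. Changes against sham are therefore also given after median-ratio scaling, which brings the typical gene to 0.01 in both comparisons. Since sham differs from both stroke groups in data set and library type as well as in surgery, stroke and data set cannot be told apart. The second respect is knockdown replicate 4, which was the highest of all 9 libraries for 10 of the 10 genes, before and after scaling, while 17.9% of all genes kept were highest in it before scaling and 16.7% after. The tests of the 10 genes that use the knockdown group are given with and without that library.

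**Figure D1:**
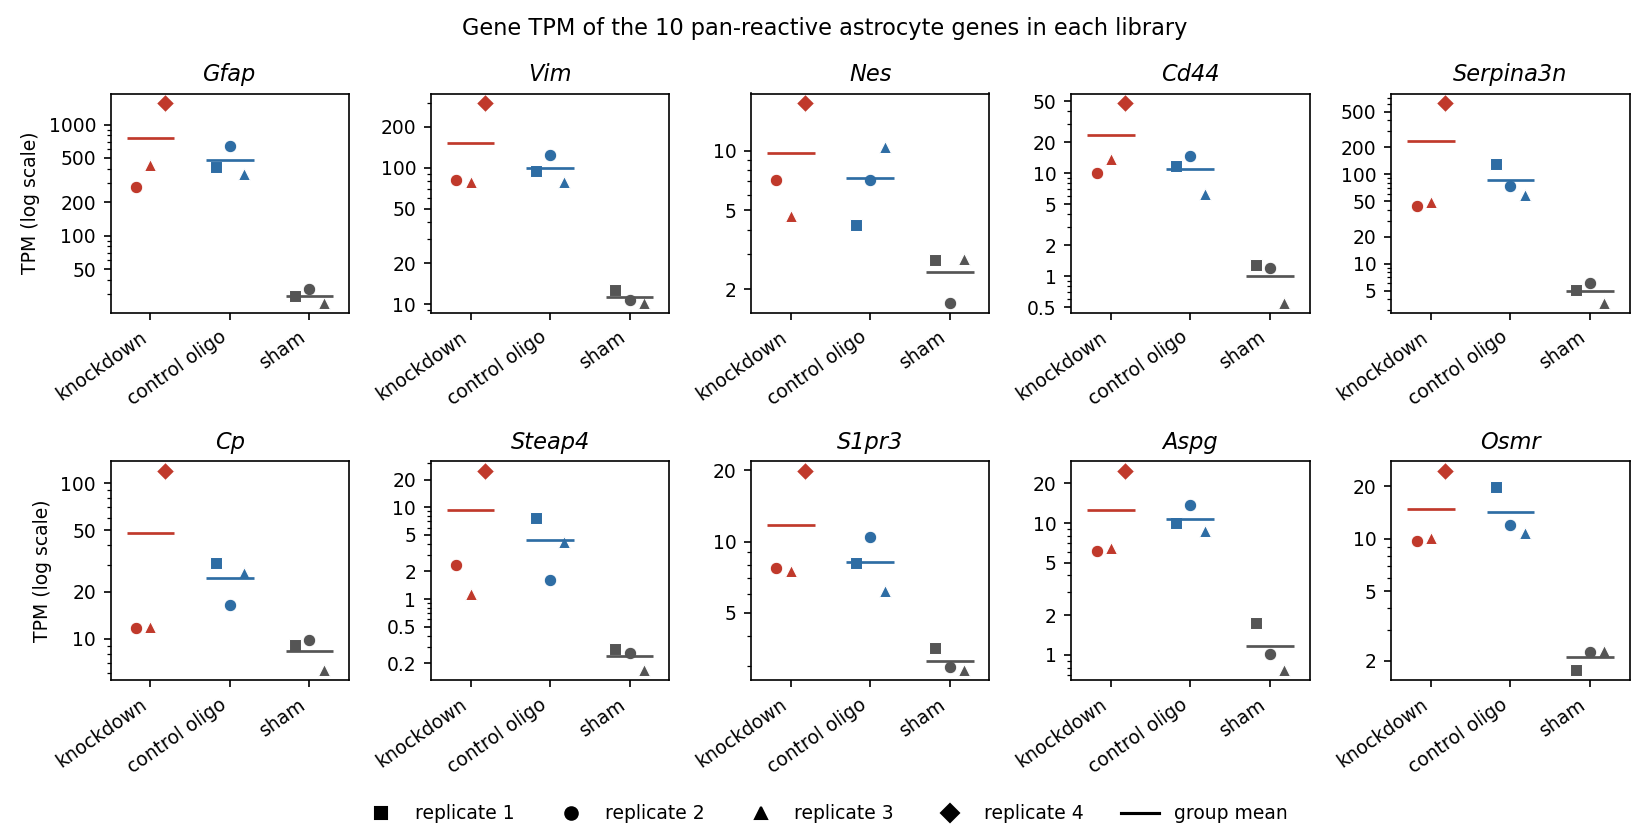
TPM of each gene (y axis, log scale, a separate range in each panel) in the knockdown, control oligo and sham libraries, with a symbol for each replicate number and a line at the group mean. All 6 stroke libraries lie above all 3 sham libraries in every panel, and knockdown replicate 4 (diamond) is the highest point in every panel.

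All 10 genes were higher after stroke than in sham as deposited, from 18.7 times as much mean TPM for Steap4 to 2.63 times for S1pr3 in the control oligo group. For 10 of 10 the lowest stroke library exceeded the highest sham library. Of all genes kept, 57.8% had every knockdown library above every sham library and 56.2% every control oligo library. After scaling 8 of the 10 stayed apart from sham in each group, all but Nes and Cp, beside 29.8% of all genes for knockdown and 30.8% for control oligo. Tests used limma on log2(TPM + 1) over all 17080 genes with Benjamini-Hochberg adjustment and a threshold of 0.05. In control oligo against sham 10 of 10 were called higher (52.6% of all genes were), with a median log2 change of 2.35 beside 0.56 over all genes. After scaling 9 of 10 were called higher, all but Nes, against 26.1% of all genes, and their median was 1.87 beside 0.01. For knockdown against sham 9 of 10 were called higher, all but Cp, against 52.7% of all genes, with a median of 2.31 beside 0.61. After scaling 6 of 10 were (Gfap, Vim, Cd44, Serpina3n, Aspg and Osmr), against 22.7% of all genes. Without knockdown replicate 4 the same comparison called 9 as deposited, beside 57.5% of all genes, and 8 when scaled, beside 28% of all genes. The 2 comparisons share the sham libraries.

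**Figure D2:**
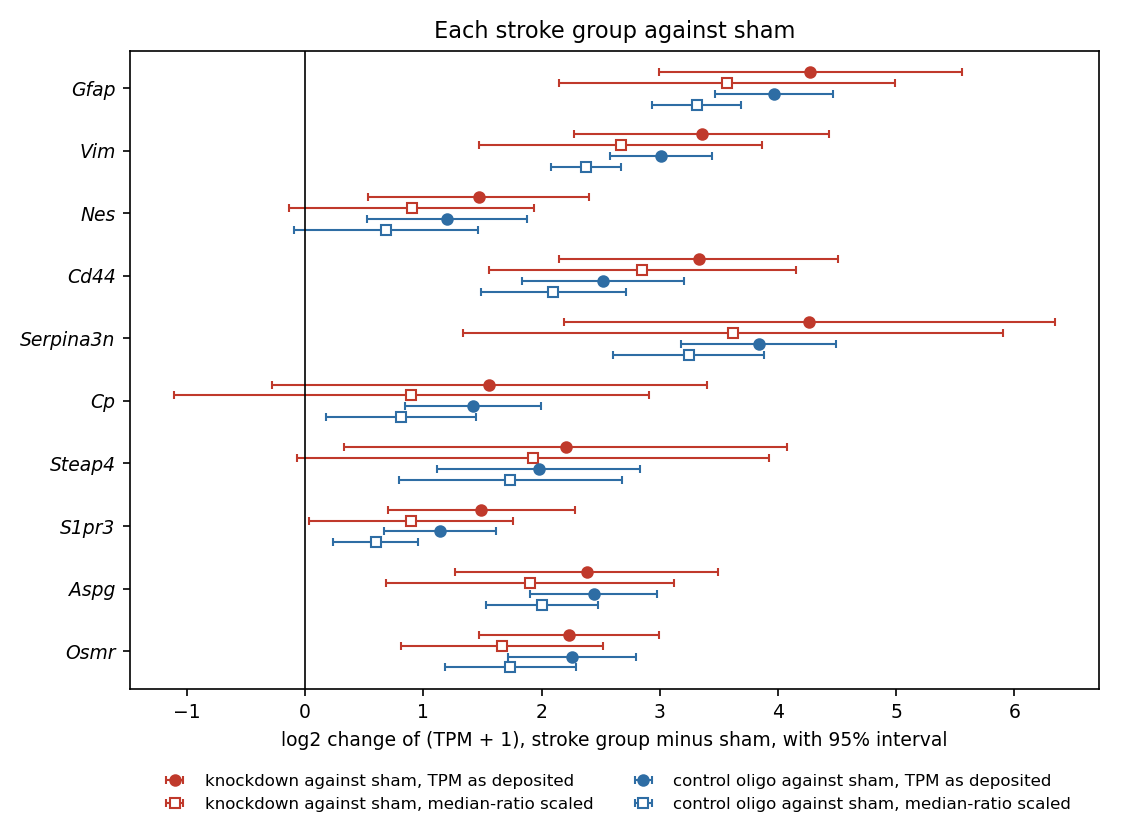
Log2 change of TPM + 1 (x axis) of each gene for knockdown against sham and for control oligo against sham, as deposited (filled) and after median-ratio scaling (open), with 95% intervals from limma. Scaling moves every point to the left, and Gfap and Serpina3n stay farthest from 0 in both comparisons.

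Gfap (ENSMUSG00000020932, chr11:102887336-102900912, minus strand, GRCm38/mm10) encodes glial fibrillary acidic protein, the intermediate filament protein by which astrocytes are usually identified. It stood at 274, 437 and 1548 TPM in knockdown replicates 2, 3 and 4, at 415, 647 and 362 TPM in control oligo replicates 1, 2 and 3, and at 28.3, 33.1 and 24.7 TPM in the sham libraries. All stroke libraries lay far above sham, and those of the knockdown and control oligo groups overlapped. By rank among the 13834 nuclear protein-coding genes kept, Gfap was at place 10 in knockdown replicate 4, at 359 and 178 in the other knockdown libraries, at 155, 62 and 200 in control oligo, and between 2552 and 3121 in sham. The mean was 475 ± 152 TPM in control oligo and 28.7 ± 4.17 TPM in sham (SD, n = 3 each), a log2 change of 3.96 ± 0.22 (SE) with a limma adjusted p of 3.6e-06, and of 3.31 after scaling (adjusted p = 8.18e-06). For knockdown against sham the change was 4.27 ± 0.55 (adjusted p = 0.000389), and 3.55 ± 0.21 without replicate 4 (adjusted p = 8.31e-06).

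The 300-base RefSeq promoter windows of Gfap and Steap4 (250 bases before to 50 after the start, GRCm38.p6) are printed because they were the only windows among the 10 genes with TTCCNGGAA, a core motif bound by STAT factors, which act below the Osmr receptor; N stands for any base. The capitals mark the match; the pattern with N is the same on both strands.
Gfap, chr11:102897151-102897450, minus strand: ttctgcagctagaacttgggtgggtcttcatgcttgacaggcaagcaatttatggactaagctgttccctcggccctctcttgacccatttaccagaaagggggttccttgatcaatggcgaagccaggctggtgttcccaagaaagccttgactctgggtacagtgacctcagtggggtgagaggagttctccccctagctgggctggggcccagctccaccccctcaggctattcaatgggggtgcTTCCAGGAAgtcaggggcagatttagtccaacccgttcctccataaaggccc
Steap4, chr5:7960222-7960521, plus strand: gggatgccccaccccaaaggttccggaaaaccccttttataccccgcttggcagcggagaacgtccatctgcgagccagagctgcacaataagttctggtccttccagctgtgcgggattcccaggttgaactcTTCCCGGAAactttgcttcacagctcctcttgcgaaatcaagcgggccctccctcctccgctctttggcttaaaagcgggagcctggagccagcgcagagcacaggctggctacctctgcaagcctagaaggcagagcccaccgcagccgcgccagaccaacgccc
The motif begins 2 bases before the RefSeq start site used for the Gfap window and 116 bases before that used for Steap4. The Gfap start used is the first base of the transcript Gfap-202 (102897200). The transcript Gfap-201, which held 95.6 to 96.5% of the gene's TPM, begins further downstream at 102897131. It was present in 377 of 32851 windows (1.15%), and in windows of 2 of the 10 genes. The looser TTCNNNGAA, which includes it, was found in 8.3% of all windows and in the same pair of genes. TGANTCA, the core motif of AP-1 factors, was found in 7.81% of all windows and in those of Cp and Osmr. These are matches of letters in a short window, and no binding was measured.

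Vim (ENSMUSG00000026728, chr2:13573927-13582826, plus strand) encodes vimentin, which polymerises with glial fibrillary acidic protein in reactive astrocytes and is also abundant in endothelial cells, fibroblasts and white blood cells. It stood at 81.0, 78.9 and 296 TPM in knockdown replicates 2, 3 and 4, at 94.6, 124 and 78.3 TPM in control oligo, and at 12.7, 10.8 and 10.2 TPM in sham. Its control oligo libraries were 8.81 times as high on average as sham, with a log2 change of 3.01 ± 0.19 (limma adjusted p = 7.37e-06) and of 2.38 after scaling. The change between knockdown and sham was 3.36 (adjusted p = 0.000542; 2.67 scaled), and 2.73 without replicate 4. Nes (ENSMUSG00000004891, chr3:87971078-87980451, plus strand) encodes nestin, a filament protein of neural progenitors that reappears in reactive astrocytes. Its libraries read 7.13, 4.68 and 17.3 TPM in knockdown, 4.20, 7.16 and 10.4 TPM in control oligo, and 2.81, 1.71 and 2.86 TPM in sham. Nes was the gene whose rise did not survive scaling in the control oligo group: its log2 change was 1.20 ± 0.30 as deposited (adjusted p = 0.00693) and 0.69 with an interval of -0.09 to 1.46 after scaling (adjusted p = 0.116). In knockdown against sham Nes changed by 1.47 as deposited (adjusted p = 0.0134), by 0.90 after scaling (adjusted p = 0.126), and by 0.99 without replicate 4 (adjusted p = 0.00594).

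Other intermediate filament and linker genes, a list of 10 that were all kept, had 8 called higher and 0 lower in control oligo against sham, with a median log2 change of 1.08 beside 0.56 over all genes. After scaling the split was 6 higher and 2 lower, where 52.6% of all genes were called higher as deposited and 26.1% after scaling. The 4 with the smallest p were Ina, Lmna, Nefm and Des, at log2 changes of 1.98, 2.31, 2.33 and 1.91 (1.33, 1.67, 1.67 and 1.63 scaled). Ina and Nefm encode filament proteins of neurons, Lmna the nuclear lamins A and C, and Des the filament protein of muscle cells. Summed over the list, the level was 661 TPM in knockdown replicate 4 and 922.5 to 973 TPM in the other knockdown libraries, 723 to 920.4 TPM in control oligo, and 359 to 379 TPM in sham.

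Cd44 (ENSMUSG00000005087, chr2:102811141-102901665, minus strand) encodes a receptor for the matrix sugar hyaluronan and for osteopontin, present on reactive astrocytes and on most white blood cells. Knockdown replicates 2, 3 and 4 held 9.96, 13.8 and 47.7 TPM, control oligo libraries 11.8, 14.8 and 6.31 TPM, and sham libraries 1.28, 1.20 and 0.55 TPM. Sham levels were so near 1 TPM that the added pseudocount of 1 lowers the fitted change: mean TPM was 10.9 times as high in control oligo as in sham, whereas the log2 change was 2.52 ± 0.30 (limma adjusted p = 0.000172; 2.10 scaled). For knockdown against sham it was 3.33 ± 0.51 (adjusted p = 0.000851), and 2.68 ± 0.23 without replicate 4. Of 13 genes for hyaluronan and Cd44 partners, 12 were found and 8 kept. In control oligo against sham 5 of these were called higher and 0 lower, beside 52.6% of all genes called higher. After scaling 4 were called higher and 3 lower, beside 26.1% of all genes called higher. The 4 of the list with the smallest p were Msn (log2 change 2.66, 2.06 scaled) and Ezr (1.81, 1.16 scaled), which link Cd44 to actin, Spp1 (3.30, 2.69 scaled), which encodes osteopontin, and Tnfaip6 (1.58, 1.004 scaled), whose product modifies hyaluronan. Spp1 stood at 67.0, 49.98 and 205.1 TPM in knockdown, at 67.0, 54.9 and 89.9 TPM in control oligo, and at 5.68, 8.94 and 4.49 TPM in sham.

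Serpina3n (ENSMUSG00000021091, chr12:104406729-104414329, plus strand) encodes a secreted serine protease inhibitor of the acute phase. It stood at 44.5, 49.4 and 616 TPM in knockdown replicates 2, 3 and 4, at 128, 73.8 and 58.8 TPM in control oligo, and at 5.08, 6.05 and 3.64 TPM in sham. Replicate 4 alone lifted the knockdown mean above the control oligo mean: with it the means were 237 ± 328 TPM in knockdown and 87.0 ± 36.6 TPM in control oligo (SD, n = 3 each), while the other 2 knockdown libraries averaged 47.0 TPM. Against sham the log2 change was 4.27 ± 0.90 in knockdown (limma adjusted p = 0.00393), 3.04 ± 0.19 without replicate 4 (adjusted p = 1.12e-05), and 3.84 ± 0.29 in control oligo (adjusted p = 1.83e-05). Serpina3n belongs to a cluster of near copies, between which reads can be misassigned. The 10 other Serpina3 genes, Serpina3a, Serpina3b, Serpina3c, Serpina3f, Serpina3g, Serpina3h, Serpina3i, Serpina3j, Serpina3k and Serpina3m, together reached 18.1 TPM in knockdown replicate 4, at most 5.64 TPM in the other stroke libraries and at most 1.65 TPM in sham, and 8 of them were listed at 0 in every sham library. Of these genes 2 passed the filter, Serpina3f and Serpina3i, and both were called higher in control oligo against sham (log2 changes of 1.05 and 0.79 by limma), 1 of them after scaling, and neither in knockdown against sham. Over all genes 52.6% were called higher in control oligo against sham, 26.1% after scaling, and 52.7% in knockdown against sham.

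Cp (ENSMUSG00000003617, chr3:19957054-20009145, plus strand) encodes ceruloplasmin, a copper enzyme that oxidises iron for export and that astrocytes carry in a membrane-anchored form. It had the smallest separation from sham together with Nes and S1pr3: 11.7, 11.9 and 120 TPM in knockdown, 30.5, 16.5 and 26.3 TPM in control oligo, and 9.04, 9.77 and 6.23 TPM in sham. In control oligo against sham the log2 change was 1.42 ± 0.25 (limma adjusted p = 0.00135), and 0.81 after scaling (adjusted p = 0.0369). In knockdown against sham the change of 1.56 had an interval of -0.28 to 3.40 (adjusted p = 0.116). Without replicate 4 it was 0.48, from 0.03 to 0.93 (adjusted p = 0.0554), and with scaling too it was -0.21, from -0.58 to 0.17. Cp shares 108 exonic bases with Hps3 on the other strand, and the quantification used no strand option; Hps3 stood at 9.34 to 11.2 TPM in knockdown, 5.30 to 9.54 TPM in control oligo and 4.61 to 8.48 TPM in sham.

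Steap4 (ENSMUSG00000012428, chr5:7960457-7982213, plus strand) encodes a reductase of iron and copper at the membrane that is induced by inflammatory cytokines. It stood at 2.35, 1.14 and 24.8 TPM in knockdown, at 7.58, 1.60 and 4.15 TPM in control oligo, and at 0.29, 0.26 and 0.17 TPM in sham, where it was the scarcest of the 10 genes. Knockdown replicate 4 held 14.2 times the mean of the other knockdown libraries, and the control oligo libraries also differed among themselves (coefficient of variation 67.6%). The log2 change against sham was 1.97 ± 0.38 in control oligo (limma adjusted p = 0.00189; 1.74 scaled, adjusted p = 0.00855) and 2.20 ± 0.81 in knockdown (adjusted p = 0.0419). As sham levels of Steap4 were below 1 TPM, the added pseudocount of 1 lowers these fitted changes. With a pseudocount of 0.1 they were 3.52 in control oligo and 3.66 in knockdown. With the pseudocount of 1, the knockdown call was lost after scaling (limma adjusted p = 0.0965) and kept without replicate 4 (1.11 ± 0.22, adjusted p = 0.00227). With scaling and without replicate 4 it was called as well (0.84, limma adjusted p = 0.0126).

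In a list of 14 other iron and copper genes, 10 were kept. Control oligo against sham called 6 higher and 1 lower as deposited, beside 52.6% of all genes called higher. After scaling the list had 2 and 2, beside 26.1% of all genes called higher. Fth1, the ferritin heavy chain that stores iron, had the smallest p, with a log2 change of 2.90 (2.24 scaled). Ftl1, the ferritin light chain, changed by 1.09 (0.42 scaled, adjusted p = 0.11), Steap3, the endosomal iron reductase, by 1.20 (0.82 scaled), and Slc11a2, an iron importer, by 0.86 (0.23 scaled, adjusted p = 0.111). The median of the list was 0.58, beside 0.56 over all genes.

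S1pr3 (ENSMUSG00000067586, chr13:51408639-51422797, plus strand) encodes a receptor for the lipid sphingosine 1-phosphate. It read 7.72, 7.50 and 19.9 TPM in knockdown, 8.11, 10.4 and 6.17 TPM in control oligo, and 3.55, 2.96 and 2.86 TPM in sham. These were the smallest fold differences of the 10 genes between control oligo and sham, with a log2 change of 1.14 ± 0.21 (limma adjusted p = 0.00154) and of 0.60 after scaling (adjusted p = 0.0139). For knockdown against sham the change was 1.49 ± 0.34 (adjusted p = 0.00585), and it missed the threshold after scaling (0.90, adjusted p = 0.078). Without replicate 4 it was called both as deposited (1.065, limma adjusted p = 0.000557) and after scaling (0.45, adjusted p = 0.0255). S1pr3 shares 45 exonic bases with the noncoding gene Gm32834 on the other strand, which stood at 2.42 to 3.26 TPM in knockdown, 1.81 to 2.36 TPM in control oligo and 0.72 to 1.63 TPM in sham. Of 12 other genes of the sphingosine 1-phosphate pathway 11 were kept. In control oligo against sham 9 were called higher and 0 lower (6 and 2 after scaling), beside 52.6% of all genes called higher (26.1% after scaling). Spns2, which exports the lipid, had the smallest p (log2 change 2.79; 2.16 scaled), followed by its kinases Sphk1 (1.69, 1.24 scaled) and Sphk2 (1.34, 0.73 scaled) and by the receptor S1pr1 (0.90; 0.24 scaled, adjusted p = 0.301).

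Osmr (ENSMUSG00000022146, chr15:6813577-6874969, minus strand) encodes the oncostatin M receptor, which signals with the shared subunit gp130 through Jak kinases and Stat3. It held 9.77, 10.1 and 24.5 TPM in knockdown, 19.8, 12.0 and 10.8 TPM in control oligo, and 1.76, 2.25 and 2.27 TPM in sham. Of the 10 genes it was raised least in knockdown replicate 4, by 2.46 times over the mean of the other knockdown libraries. The log2 change was 2.25 ± 0.24 in control oligo against sham (limma adjusted p = 9.58e-05; 1.74 scaled) and 2.23 ± 0.33 in knockdown against sham (adjusted p = 0.000724; 1.67 scaled; 1.83 without replicate 4). Among 15 gp130 cytokines, receptors and signal carriers 14 were kept. Control oligo against sham called 8 higher and 1 lower (4 and 2 after scaling), with a median of 0.92. Over all genes 52.6% were called higher, and 26.1% after scaling. Stat3 itself changed by 1.59 (0.95 scaled, adjusted p = 0.000719), and Socs3, the feedback inhibitor that Stat3 induces, by 3.02 (2.53 scaled). Il6ra, the interleukin 6 receptor, changed by 1.13 (0.76 scaled), while Lifr, the receptor chain for leukemia inhibitory factor, fell by 0.79 on the log2 scale (-1.42 scaled). The ligand Osm did not pass the filter; it is named after its values were seen, at 0.33, 0.20 and 3.18 TPM in knockdown, 0.55, 0.24 and 1.11 TPM in control oligo, and at most 0.16 TPM in sham.

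Aspg (ENSMUSG00000037686, chr12:112106679-112127559, plus strand) encodes an asparaginase, which splits asparagine into aspartate and ammonia. It stood at 6.18, 6.46 and 24.8 TPM in knockdown, at 9.96, 13.7 and 8.74 TPM in control oligo, and at 1.75, 1.01 and 0.76 TPM in sham. The log2 change was 2.44 ± 0.24 in control oligo against sham (limma adjusted p = 6.26e-05; 2.002 scaled) and 2.38 ± 0.48 in knockdown against sham (adjusted p = 0.00321; 1.90 scaled; 1.78 without replicate 4). Of 8 other genes of asparagine metabolism, all kept, 6 were called higher and 0 lower in control oligo against sham, with a median of 0.64. After scaling 2 were called higher and 1 lower, with a median of -0.02. Over all genes 52.6% were called higher, and 26.1% after scaling. The 4 of the list with the smallest p were Nars, which loads asparagine onto its transfer RNA (1.15, 0.49 scaled), the amino acid carrier Slc1a5 (1.11, 0.78 scaled), the asparaginase Asrgl1 (0.67) and the asparagine synthetase Asns (0.81). Asrgl1 and Asns were not called after scaling (0.016 and 0.15, limma adjusted p = 0.929 and 0.278).

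All of 7 further pan-reactive genes outside the 10 passed the filter and were called higher in control oligo against sham as deposited and after scaling (7 of 7 each, median 3.85 and 3.38). Lgals3, a sugar-binding protein of phagocytes and glia, changed by 4.16 (3.95 scaled), the small heat shock protein Hspb1 by 3.85 (3.27), the metalloproteinase inhibitor Timp1 by 5.17 (4.78) and the iron-carrier binding protein Lcn2 by 5.36 (4.84). In knockdown against sham 6 of 7 were called higher (4 of 7 after scaling), and also 6 of 7 without replicate 4. Over all genes 52.6% were called higher in control oligo against sham, and 26.1% after scaling. The shares for knockdown were 52.7%, 22.7% after scaling and 57.5% without replicate 4. Lcn2 stood at 82.2, 84.7 and 898 TPM in knockdown, 181, 55.7 and 197 TPM in control oligo and 2.34, 2.94 and 1.25 TPM in sham. Knockdown replicate 4 was thus far above the rest for Lcn2. It was not for Hspb1, which stood at 97.3, 73.2 and 79.4 TPM in knockdown, at 67.3, 66.9 and 101 TPM in control oligo and at 6.07, 3.09 and 4.42 TPM in sham.

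The levels of the 10 genes were set beside 12 markers of astrocytes. Those markers, all kept, had 7 called higher and 1 lower in control oligo against sham (3 and 4 after scaling). Over all genes 52.6% were called higher in this comparison, and 26.1% after scaling. The sum of the 12 markers was 1850 to 2080 TPM in knockdown, 1790 to 2168 TPM in control oligo and 1054 to 1248 TPM in sham. Per 1000 TPM of these markers, Gfap stood at 148, 222 and 744 TPM in knockdown, at 206, 362 and 167 in control oligo and at 22.7, 26.6 and 23.5 in sham. Vim gave 43.8, 40.2 and 142 in knockdown, 46.9, 69.4 and 36.1 in control oligo and 10.2, 8.67 and 9.69 in sham. On this footing Gfap, Vim, Cd44, Serpina3n, Steap4, Aspg and Osmr stayed above sham in every stroke library, and Nes, Cp and S1pr3 overlapped with sham. The share of all genes that would stay above sham on this footing was not computed.

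Knockdown of eRNA_06347 was compared with the control oligo to ask whether the response of these genes differed under the knockdown. None of the 10 genes was called (limma adjusted p = 1 for each), where 2 of 17080 genes (0.0117%) were called in either direction and 321 had an unadjusted p under 0.05, none of the 10 among them. For 10 of 10 the libraries of the groups overlapped, and the share of all genes that did so was not computed. Log2 changes ran from -0.06 for Aspg to 0.81 for Cd44, with 8 above and 2 below 0 and a median of 0.29 beside 0.06 over all genes. The intervals were wide. Serpina3n had 0.43 with an interval of -1.94 to 2.81, Steap4 0.23 with -2.06 to 2.51, and Cp 0.14 with -1.94 to 2.22. Gfap had 0.31 with -1.17 to 1.79, Vim 0.34 with -0.90 to 1.58, Nes 0.27 with -0.92 to 1.45, and Cd44 0.81 with -0.61 to 2.22. S1pr3 had 0.35 with -0.61 to 1.31, Aspg -0.06 with -1.30 to 1.18, and Osmr, the narrowest apart from S1pr3, -0.02 with -0.99 to 0.94. Changes within these intervals were not excluded with 3 libraries a group. The intervals are not adjusted for the number of genes, and their bounds are not limits of detection. A call needed an adjusted p under 0.05 over all 17080 genes, and the smallest change that could have been called was not computed.

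Without knockdown replicate 4 the log2 changes of 9 of the 10 genes were below 0, all but that of Cd44, with a median of -0.42 beside 0.08 over all genes. None was called (limma adjusted p = 0.776 to 0.952), where 3 of 17080 genes were in either direction (0.0176%). The values were -0.94 for Cp (interval -1.66 to -0.23), -0.86 for Steap4 (-2.18 to 0.46), -0.80 for Serpina3n (-1.63 to 0.04), -0.67 for Aspg (-1.28 to -0.05), -0.43 for Osmr, -0.41 for Gfap, -0.28 for Vim, -0.21 for Nes, -0.08 for S1pr3 and 0.16 for Cd44. Both remaining knockdown libraries lay below every control oligo library for 4 of the 10 genes (Serpina3n, Cp, Aspg and Osmr), and for 7.39% of all genes kept. The direction of the comparison therefore changed sign for 7 genes (Gfap, Vim, Nes, Serpina3n, Cp, Steap4 and S1pr3) with the presence of this library. That library was left out after its values were seen. Without it, 2 of the 10 genes (Cp and Aspg) had an unadjusted limma p under 0.05, beside 960 of 17080 genes. With scaling as well, 4 of the 10 had, beside 1088 of 17080 genes.

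**Figure D3:**
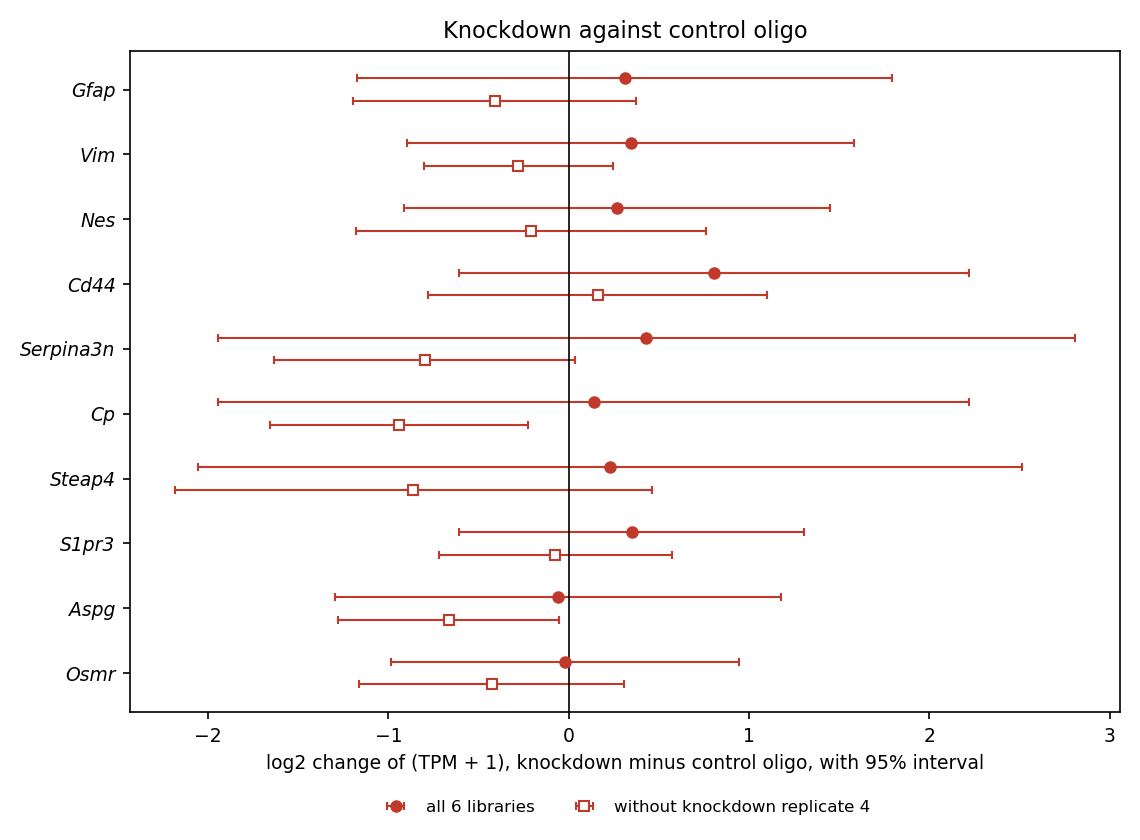
Log2 change of TPM + 1 (x axis), knockdown minus control oligo, of each gene with all 6 libraries (filled) and without knockdown replicate 4 (open), with 95% intervals from limma. With all libraries every interval includes 0; without replicate 4 all points but that of Cd44 lie left of 0, and none passes after adjustment over all genes.

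Knockdown replicate 4 exceeded the mean of the other knockdown libraries by 2.46 times for Osmr, 2.61 for S1pr3, 2.93 for Nes, 3.70 for Vim, 3.93 for Aspg, 4.02 for Cd44, 4.36 for Gfap, 10.2 for Cp, 13.1 for Serpina3n and 14.2 for Steap4. The metal handling genes and Serpina3n were thus raised most, and the receptors S1pr3 and Osmr least. In the same library the summed markers of monocytes and macrophages were 20.6 times and those of neutrophils 16.5 times the mean of the other knockdown libraries. Markers of meninges and fibroblasts were 2.59 times, of pericytes and smooth muscle 2.20 times, of endothelial cells 2.08 times and of microglia 1.58 times as high. The sums for astrocytes (1.09 times), oligodendrocytes (1.05 times), choroid plexus and ependyma (0.73 times) and neurons (0.67 times) were near or below the other libraries. Neutrophil markers summed to 79.1, 94.6 and 1433 TPM in knockdown, to 338, 32.0 and 344 TPM in control oligo and to 2.59 to 7.78 TPM in sham, where 4 of the 10 were listed at 0 throughout. Monocyte and macrophage markers summed to 36.4, 37.9 and 765 TPM in knockdown, to 167, 33.7 and 56.2 TPM in control oligo and to 12.3 to 26.5 TPM in sham. Endothelial markers summed to 252 to 541 TPM in knockdown, 246 to 296 TPM in control oligo and 110.4 to 136 TPM in sham, and markers of meninges and fibroblasts to 122 to 330.1 TPM in knockdown, 134 to 151 TPM in control oligo and 55.9 to 68.1 TPM in sham. Knockdown replicate 4 was the highest of the 9 libraries for 10 of 10 endothelial markers, 8 of 8 kept monocyte and macrophage markers, 7 of 7 kept neutrophil markers, 4 of 12 astrocyte markers and 0 of 10 neuronal markers. It was so for 8 of 10 markers of pericytes and smooth muscle, 7 of 10 of meninges and fibroblasts and 6 of 10 of microglia. For oligodendrocytes the count was 1 of 10, and for choroid plexus and ependyma 1 of 4 kept. Over all genes kept the share was 17.9%. The part of these other cells in the levels of the 10 genes was not tested.

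**Figure D4:**
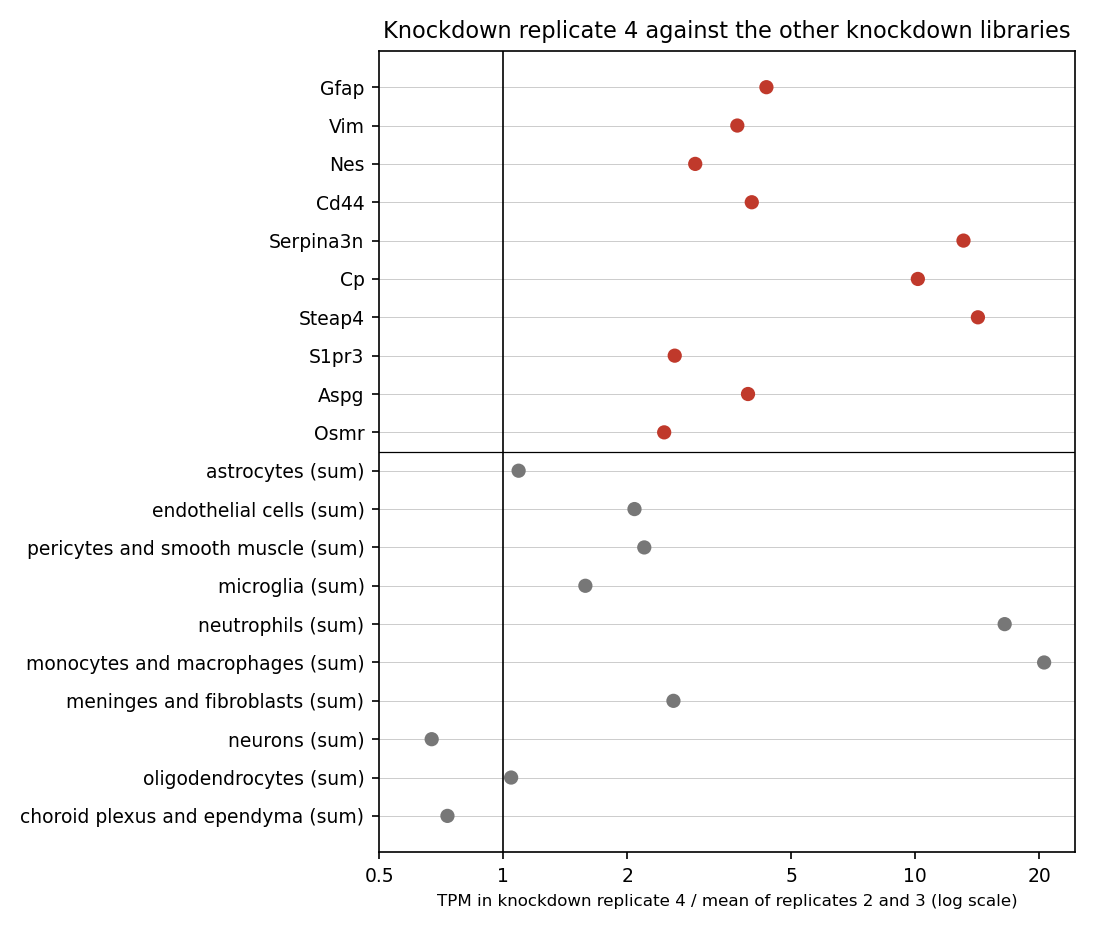
TPM in knockdown replicate 4 divided by the mean of knockdown replicates 2 and 3 (x axis, log scale), for each of the 10 genes (red) and for the summed markers of each cell type (grey). The genes lie between 2.46 and 14.2, below the sums for neutrophils and for monocytes and macrophages and above those for astrocytes and neurons.

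The control oligo libraries also fell into patterns by gene. Replicate 2 was the highest of its group for Gfap, Vim, Cd44, S1pr3 and Aspg, replicate 1 for Serpina3n, Cp, Steap4 and Osmr, and replicate 3 for Nes. Replicate 2 was the library with the lowest neutrophil and monocyte sums of all stroke libraries (32.0 and 33.7 TPM). It held the most Gfap (647 TPM) and the least Cp (16.5 TPM) and Steap4 (1.60 TPM) of the control oligo group. The SD in percent of the mean was between 56.7% for Osmr and 141% for Steap4 in knockdown. It was 23.5% for Vim, 31.9% for Gfap, 42.1% for Serpina3n and 67.6% for Steap4 in control oligo, and between 11.8% for Vim and 43.6% for Aspg in sham.

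The pathway lists gave no call between knockdown and control oligo either. In each of the 8 lists described above, 0 genes were called in either direction by limma, with all libraries or without replicate 4. Over all genes only 0.0117% were called with all libraries and 0.0176% without replicate 4, so a count of 0 says little about a list. List medians were between -0.01 for the 2 kept Serpina3 near copies and 0.18 for iron and copper handling, and without replicate 4 between -0.66 for the Serpina3 near copies and 0.13 for the intermediate filament genes. The other pan-reactive genes had medians of 0.06 and, without replicate 4, -0.39, beside 0.06 and 0.08 over all genes. Of the genes in all 8 lists, 2 from the intermediate filament and hyaluronan lists came nearest by unadjusted p. They were Prph, a filament protein of nerve fibres, and Hyal1, which degrades hyaluronan, with log2 changes of 0.50 and 0.94 (limma adjusted p = 1 for each).

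At the level of transcripts, Gfap is of interest because its mRNA can end in more than a single way. Gfap-201 (ENSMUST00000067444) has 9 coding exons and the usual alpha end of 430 codons, and Gfap-202 (ENSMUST00000077902) has 8 coding exons and an end of its own in 428 codons, known as the delta form and described in progenitor-like astrocytes. The share of Gfap-202 in the gene's TPM was 4.31, 3.87 and 4.19% in knockdown, 4.37, 3.48 and 3.80% in control oligo, and 4.17, 3.91 and 4.38% in sham. All 3 groups overlapped, although gene TPM in control oligo was 16.5 times that in sham. The mean share was 4.12 ± 0.23% in knockdown, 3.88 ± 0.45% in control oligo and 4.15 ± 0.24% in sham (SD, n = 3 each). In TPM, Gfap-201 read 262, 419.6 and 1482 in knockdown, 397, 624 and 348 in control oligo and 27.2, 31.8 and 23.7 in sham. Gfap-202 read 11.8, 16.9 and 64.8 TPM in knockdown, 18.1, 22.5 and 13.8 in control oligo and 1.18, 1.29 and 1.08 in sham. The noncoding Gfap-203 did not pass the filter and stayed at or under 0.76 TPM in every library. Both coding forms were called higher in control oligo against sham, by log2 changes of 3.97 (limma adjusted p over all transcripts 0.000245) for Gfap-201 and 3.11 (adjusted p = 0.000488) for Gfap-202. For knockdown against sham they changed by 4.27 (limma adjusted p = 0.00384) and 3.50 (adjusted p = 0.00695), and without replicate 4 by 3.55 and 2.79 (adjusted p = 0.00123 and 0.00179). Gfap-202 stood near 1 TPM in sham, so the added pseudocount of 1 lowers its fitted changes more than those of Gfap-201. The shares above do not depend on the pseudocount.

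Cp also has forms that differ at the end of the coding region. Cp-201 (ENSMUST00000003714, 1085 codons) carries the end known from the form anchored to the astrocyte membrane, and Cp-202 (ENSMUST00000091309, 1061 codons) the end known from the secreted form of plasma. The last 30 shared coding bases are given in lower case and the bases that tell the forms apart in capitals, without the stop codon.
Cp-201, chr3:19989189-20005555, plus strand: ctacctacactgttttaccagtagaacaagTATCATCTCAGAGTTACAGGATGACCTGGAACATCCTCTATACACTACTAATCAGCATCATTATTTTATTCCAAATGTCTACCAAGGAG
Cp-202, chr3:19989189-19992522, plus strand: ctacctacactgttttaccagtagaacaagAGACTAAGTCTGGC
Transcripts with the Cp-201 end (Cp-201, Cp-204, Cp-205 and Cp-214) summed to 4.50, 3.45 and 31.6 TPM in knockdown, 13.3, 6.15 and 6.39 TPM in control oligo, and 3.23, 2.89 and 2.08 TPM in sham. Those with the Cp-202 end (Cp-202 and Cp-203) summed to 3.56, 3.38 and 27.7 TPM in knockdown, 7.004, 3.02 and 6.88 TPM in control oligo, and 1.65, 2.06 and 1.26 TPM in sham. The Cp-202 end made up 44.2, 49.5 and 46.7% of both in knockdown, 34.6, 33.0 and 51.9% in control oligo, and 33.8, 41.6 and 37.6% in sham. Control oligo overlapped with both other groups, while every knockdown library lay above every sham library; this difference in share was not tested. A large part of the Cp signal was not on coding transcripts. Cp-206, a short transcript annotated as a retained intron, gave 2.63, 3.75 and 54.0 TPM in knockdown, 6.91, 5.11 and 10.2 TPM in control oligo, and 3.09, 2.92 and 1.44 TPM in sham. It made up 44.9% of the gene's TPM in knockdown replicate 4. Over protein-coding transcripts alone Cp stood at 8.34, 6.87 and 59.9 TPM in knockdown, 20.6, 10.5 and 13.9 TPM in control oligo, and 4.91, 5.30 and 3.93 TPM in sham, with replicate 4 again the highest.

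Cd44 is spliced into a short standard form and longer variant forms. Cd44-203, with 9 exons, stood at 5.34, 6.65 and 18.6 TPM in knockdown, 5.68, 7.40 and 2.42 TPM in control oligo, and was listed at 0.97, 0 and 0 TPM in sham. Cd44-201, with 19 exons, stood at 4.17, 4.71 and 12.7 TPM in knockdown, 1.91, 0.04 and 2.60 TPM in control oligo, and 0.18, 0.49 and 0.55 TPM in sham. All 3 knockdown libraries thus exceeded all 3 control oligo libraries for Cd44-201. Its log2 change of 1.74 was not called (limma adjusted p = 1). Cd44-207, which ends at the same base and did not pass the filter, stood at 2.499, 4.648 and 0 TPM in control oligo. In knockdown it stood at 0, 0 and 0.285 TPM. It is named after its values were seen. How far reads were split wrongly between these forms was not tested. The share of all transcripts that separated in this way was not computed. The share of Cd44-201 in the gene's TPM was 41.9, 34.2 and 26.7% in knockdown, 16.3, 0.26 and 41.2% in control oligo, and 14.2, 41.0 and 100% in sham. The shares overlapped between all groups. Against sham Cd44-203 was called higher in both groups, by 2.97 in knockdown (adjusted p = 0.00735) and by 2.20 in control oligo (adjusted p = 0.0124). Without replicate 4 the knockdown change was 2.47 (limma adjusted p = 0.00901). Cd44-201 was called in knockdown against sham (2.40, adjusted p = 0.00741; 1.96 without replicate 4, adjusted p = 0.00404) and not in control oligo against sham (0.67, adjusted p = 0.32).

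Over all kept transcripts of the 10 genes, 0 of 23 were called between knockdown and control oligo, where 27 of 39894 transcripts were (0.0677%); 1 of the 23 had an unadjusted limma p under 0.05. In control oligo against sham 16 of 23 were called higher, beside 27.7% of all transcripts. In knockdown against sham 11 of 23 were, beside 26.5% of all transcripts, and 16 of 23 without replicate 4, beside 28.4%. After scaling 10 of 23 were called in control oligo against sham, beside 12.6% of all transcripts, and 7 of 23 in knockdown against sham, beside 10.5%. The single transcripts of Serpina3n, S1pr3 and Steap4 carry the whole gene level, and Osmr-201 stood at 7.80, 9.28 and 21.7 TPM in knockdown, 9.30 to 18.1 TPM in control oligo and 1.48, 1.43 and 0.72 TPM in sham. Osmr-201 held 79.8 to 91.7% of the gene's TPM in knockdown, 83.7 to 91.2% in control oligo, and 83.9, 63.6 and 31.9% in sham. Vim-201 carried most of Vim in every library, least in sham replicate 2 at 54.1%, where Vim-206 held 36.7%. Read length differs between sham and the stroke libraries, and how far it moves the assignment to transcripts was not tested.

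**Figure D5:**
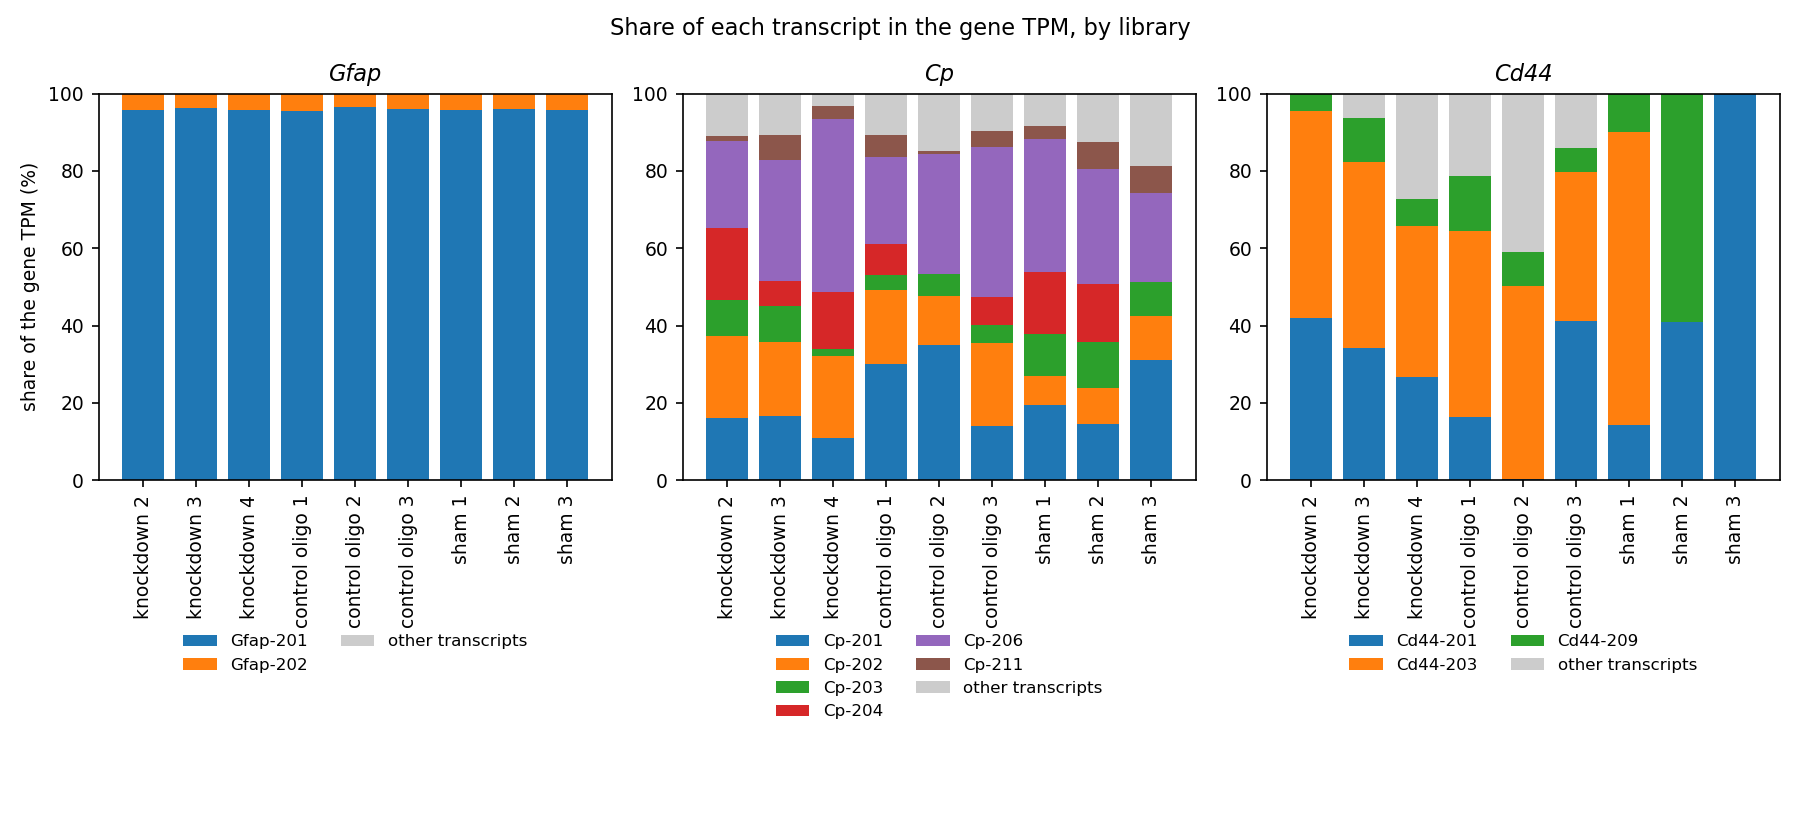
Share of the gene's TPM (y axis, percent) held by each kept transcript of Gfap, Cp and Cd44 in every library, with all transcripts that did not pass the filter stacked in grey. Gfap-202 stays between 3.48 and 4.38% in every library, while the shares of Cp and Cd44 transcripts vary from library to library within groups.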

How the data were processed

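HISAT2 2.0 and StringTie 1.3 were used with the GRCm38 (mm10) genome, per the submitters' processing notes; per the file headers, StringTie was version 1.3.4d, ran on a merged annotation and was given no strand option. The deposited files give coverage, FPKM and TPM for 131100 transcripts in each library, and no read counts. Gene TPM was computed here as the sum of the deposited TPM over the transcripts of each of 52550 genes. Reads can be split wrongly between near copies, overlapping genes and transcripts of a gene. Transcript sequences and exon maps came from GENCODE M21, which holds 99.72% of the gene IDs, and promoter windows from RefSeq.

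Genes and transcripts were kept at 1 TPM or more in at least 3 of the 9 libraries. The 6 libraries of a comparison were fitted apart from the rest by limma 3.58.1 (R 4.3.3, trend) on log2(TPM + 1), with Benjamini-Hochberg adjustment over all features and a threshold of 0.05. Fold changes on this scale understate the change of low genes. Scaled values were divided by a median-ratio factor per library, computed over the kept genes. The main gene fit of each comparison was also tested on simulated data, while the transcript fits and the alternatives were not. Tables were handled with Python 3.11.15, numpy 2.4.6 and pandas 2.3.3, and figures drawn with matplotlib 3.10.9. The labels speak of cohorts of mice but do not say that each library is 1 animal, so p-values measure the spread between these libraries. Precision is set by 3 libraries a group. Read counts per gene were not given, but aligned bases per gene follow from coverage and transcript length. For Steap4 in sham they were 0.00131 to 0.00212 megabases.

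The 10 genes, pathway lists and cell type markers were chosen with earlier results of these data known. Named are all 10 genes, their kept transcripts, and from each pathway list at most the 4 genes with the smallest p. Alternatives were FPKM, another pseudocount (0.1), no filter, scaling, TPM over nuclear protein-coding genes, 1 fit over 9 libraries, a replicate block, and leaving out each library; scaling without knockdown replicate 4 was added after the data were seen.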

Additional observations from a re-analysis of the deposited data

How the results depend on the processing

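In control oligo against sham, 8 to 10 of the 10 genes were called higher under every alternative, and 10 under the replicate block. Of the same genes, 6 to 9 were in knockdown against sham, 9 under the replicate block and 7 to 9 with a library left out; knockdown against control oligo gave 0 throughout, also under the block. The shared replicate numbers pair no samples by the labels, and deviations of same-numbered libraries correlated at 0.23 and 0.07 (knockdown with control oligo), -0.03, -0.07 and 0.12 (control oligo with sham), and -0.06 and 0.07 (knockdown with sham). Knockdown replicate 4 has no partner, so the block rests on replicates 2 and 3 in comparisons with knockdown. For knockdown against control oligo it gave log2 changes of -0.48 for Gfap, -0.30 for Vim, -0.51 for Nes, -0.48 for Serpina3n, -0.77 for Cp, -0.45 for Steap4 and -0.072 for S1pr3. Scaling without knockdown replicate 4 gave -0.50 for Gfap, -0.37 for Vim, -0.28 for Nes, -0.88 for Serpina3n, -1.02 for Cp, -0.90 for Steap4 and -0.15 for S1pr3, and -0.21 for Cp in knockdown against sham. With each library left out in turn, log2 changes between knockdown and control oligo ran from -0.41 to 0.84 for Gfap, -0.28 to 0.67 for Vim, -0.21 to 0.63 for Nes, -0.80 to 1.08 for Serpina3n, -0.94 to 0.68 for Cp, -0.86 to 0.93 for Steap4, -0.075 to 0.57 for S1pr3, -0.67 to 0.26 for Aspg and -0.43 to 0.23 for Osmr; the lowest is without knockdown replicate 4 in each case. Transcripts of the 10 genes called in control oligo against sham numbered 10 with FPKM, with scaling and with TPM over nuclear protein-coding genes, 9 in 1 fit over 9 libraries, and 7 to 16 with a library left out (9 without sham replicate 1, 9 without sham replicate 2, 7 without sham replicate 3). Knockdown against sham had 7 with scaling and with TPM over nuclear protein-coding genes, 5 under the replicate block, and 7 to 16 with a library left out (7 without each sham library, 16 without knockdown replicate 4). The cause was not tested. Of single genes against sham, Nes lost its call with FPKM and with nuclear protein-coding TPM in both comparisons, Cp in control oligo with nuclear protein-coding TPM (adjusted p = 0.055) and in 1 fit over 9 libraries (0.104), and in knockdown Steap4 and S1pr3 with FPKM and with nuclear protein-coding TPM, all by limma. Steap4 in knockdown also lost it with no filter and without each sham library, and Nes in knockdown without sham replicate 2 (adjusted p = 0.0519). Over all genes, knockdown against control oligo called 2 genes, 4 in 1 fit over 9 libraries, 0 under the block and 0 with nuclear protein-coding TPM, where the other comparisons called 3059 higher and 4132 lower (control oligo against sham) and 2546 higher and 3990 lower (knockdown against sham).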
